A study of Mus musculus with 2 samples.

Results

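Ifitm1, Ifitm2, Ifitm3 and Ifitm6 are 4 of the 7 genes with an Ifitm symbol among the 32286 features measured in mouse bone marrow cells. They were picked by symbol, after it had been seen in these data that Ifitm1 and Ifitm2 were higher and other interferon-responsive genes lower in one library than in the other. The ratios between the libraries are therefore descriptions and support nothing by themselves. What the choice did not use is where in the marrow each gene is found within a library, its neighbours in the genome and the letters of its start region. Shares of cells with the RNA rise with its level, so their differences between the libraries carry the same contrast.

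Droplet-based 3′ single-cell RNA sequencing was run on 1 library per genotype. The control library is labelled Mx1Cre+/-;Rosa26+/+, while the LSL-MYC library (MYC in the plots) is labelled Mx1Cre+/-;Rosa26LSL-MYC/LSL-MYC. Both groups carry 1 copy of a Cre recombinase driven by the interferon-responsive Mx1 promoter, which acts in many blood and other cells. Only the second group carries the MYC transgene, placed on both Rosa26 alleles behind a stop signal that Cre cuts out. The labels give neither an agent used to switch on Cre nor the age or number of mice. With 1 library per group there is no replicate spread, no test was possible, and every interval below covers counting error only.

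IFITM proteins are small membrane proteins that hinder the fusion of enveloped viruses with the membranes of a cell. IFITM1 sits largely at the cell surface and IFITM2 and IFITM3 largely in endosomes, and less is known of IFITM6. Interferons raise the transcription of several Ifitm genes in many cell types, but stem cells and some other cells hold their RNA without interferon.

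The control library gave 14904 kept cells with a median of 5342.5 unique molecular identifiers (UMIs, each standing for 1 captured RNA molecule), and the LSL-MYC library 12539 cells with a median of 6017. The transgene feature had 0 UMIs in the control and 289 in the LSL-MYC library. Cells were grouped into classes from clusters that were made without the 4 members and the listed interferon genes and named by markers, so each class name stands for cells like that type. There were 9 classes with at least 100 cells in both libraries. The neutrophil lineage pools 3 of them, granulocyte progenitors, immature and mature neutrophils, with 6868 control cells (median 5311 UMIs) and 5956 LSL-MYC cells (median 6912). Clusters that could not be named held 19.5% and 24.4% of the kept cells of the control and LSL-MYC libraries. A macrophage class had 23 control cells and 630 in the LSL-MYC library and was not compared. The libraries share 97 barcodes. Levels are summed UMIs of a gene per 1000000 UMIs of the class (CPM). Because neutrophil RNA floating in the suspension can enter any droplet, a ceiling was computed for each other class. It is the gene's level in the neutrophil lineage times the largest relative level of 6 neutrophil genes (Camp, Ngp, Ltf, Lcn2, S100a8 and S100a9) in that class. The ceiling rests on the pooled lineage. Free RNA chiefly from mature neutrophils could give more of Ifitm1, which within the lineage was highest there.

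The 4 genes lie within 63.1 kb of chromosome 7 (GRCm38, GENCODE vM21), in the order Ifitm2, Ifitm1, Ifitm3, Ifitm6. All are protein-coding. Ifitm2 (ENSMUSG00000060591) spans 140954837 to 140955987 on the minus strand in 2 exons. Ifitm1 (ENSMUSG00000025491) spans 140967221 to 140969825 on the plus strand in 2 or 3 exons, depending on the transcript. Ifitm3 (ENSMUSG00000025492) spans 141009586 to 141010770 on the minus strand in 2 exons. Ifitm6 (ENSMUSG00000059108) spans 141015699 to 141017924 on the minus strand in 2 or 3 exons.

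The genes are related in sequence, which bears on how 3′ reads are assigned. Over the last 400 bases of the longest annotated transcript, aligned bases were 75.5% identical between Ifitm1 and Ifitm2, 77.2% between Ifitm1 and Ifitm3 and 77.4% between Ifitm2 and Ifitm3. Of the 351 stretches of 50 bases in that end of Ifitm3, 15 also occur in an Ifitm1 transcript, and in every other ordered pair of the 4 genes none did. A read lying wholly within those shared bases could not be placed on 1 gene by its letters. Read length and the number of such reads were not examined.

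The start regions are shown because the classical interferon routes act through 2 short DNA elements. One is the core of the interferon-stimulated response element, GAAA and again GAAA with any pair of bases between them, bound by IRF proteins, alone or within larger complexes. The other is the core of the gamma-activated site, TTCNNNGAA, to which dimers of signal-activated factors bind. Both strands of 300 bases per gene were searched, 250 before and 50 after the RefSeq start (GRCm38.p6), and all 4 genes had an entry. Of 27025 such windows 3.49% hold the first core and 8.47% the second. Windows below run 5′ to 3′ on the gene's own strand, with matches to either core in capitals. For all 4 genes the RefSeq start lies inside the GENCODE span, which for Ifitm1 and Ifitm6 begins outside the window searched, and positions are counted from the RefSeq start. For Ifitm2 the bases from 120 to 27 before the start are shown, for Ifitm3 the first 30 bases from the start, for Ifitm6 the bases around the start, and for Ifitm1 the 30 bases before it.
Ifitm1 chr7:140968046-140968075, plus strand: ctaatggtaacttgaaaccactatttgccc
Ifitm2 chr7:140955988-140956081, minus strand: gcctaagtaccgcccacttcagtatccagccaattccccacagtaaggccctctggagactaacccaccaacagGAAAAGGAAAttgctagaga
Ifitm3 chr7:141010715-141010744, minus strand: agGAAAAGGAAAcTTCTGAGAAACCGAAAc
Ifitm6 chr7:141016888-141016916, minus strand: ccacccatatgaacTTCCTTGAAacaaga
Ifitm2 holds 1 response-element core before its start, and Ifitm3 holds 2 within 30 bases after its RefSeq start, with 1 gamma-site core between them that overlaps the second. Ifitm6 holds 1 gamma-site core, which ends just before its start, and the Ifitm1 window holds neither set of letters. A match in letters is not a measured binding site, and no match says only that these letters are not in this window.

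Ifitm1 is the surface member. In the control it was highest in basophils or mast cells at 725 CPM (95% interval 686 to 767). Next came mature neutrophils, with 258 CPM (250.4 to 265), and stem or multipotent progenitors, with 242 CPM (228 to 257), whose intervals overlap. Every other class held between 6.81 CPM, in immature neutrophils, and 19.1 CPM, in monocytes. Along the neutrophil lineage the control level thus went from 16.5 CPM in granulocyte progenitors down to 6.81 CPM in immature cells and up to 258 CPM in mature ones.

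In the LSL-MYC library Ifitm1 was higher in all 9 classes as counted, though not in mature B cells once the ceiling was taken off. Mature neutrophils reached 859 CPM, a log2 ratio of 1.74 (1.69 to 1.78). Over alternative ways to filter, cluster or scale the cells that ratio ran from 1.63 to 2.35. Stem or multipotent progenitors reached 612 CPM, a log2 ratio of 1.34 (1.23 to 1.45). Granulocyte progenitors went from 16.5 to 115 CPM, a log2 ratio of 2.80 (2.57 to 3.02), and monocytes from 19.1 to 165 CPM, one of 3.12 (2.96 to 3.28). Over the alternatives these ran from 2.13 to 3.30 and from 2.26 to 3.26. The basophil or mast cell class, where the gene was highest in the control, had the lowest ratio as counted, with 910.2 CPM and a log2 ratio of 0.33 (0.21 to 0.44). The intervals of the 2 highest classes, basophils or mast cells and mature neutrophils, overlap in the LSL-MYC library. In immature neutrophils 6.81 and 12.9 CPM gave a log2 ratio of 0.92 (0.64 to 1.21). That value was not stable, since it lay between 1.96 and 2.78 when cells were filtered or clustered in 6 other ways.

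Several of these classes held little Ifitm1, and neutrophil RNA could give part or all of it. In T or NK cells the level was 9.37 CPM in the control, beside a ceiling of 9.75 CPM, and 89.2 CPM in the LSL-MYC library, beside 51.0 CPM. A single cell held 46.7% of the 75 UMIs in the latter, and without the richest cell of each library the levels were 7.31 and 47.9 CPM. Erythroid cells held 9.45 CPM beside a ceiling of 4.73 CPM in the control, and 30.6 CPM beside 23.9 CPM in the LSL-MYC library. Mature B cells held 10.1 and 23.7 CPM, from 32 and 16 UMIs, beside ceilings of 3.72 and 17.5 CPM. In the LSL-MYC library the ceiling was 18.6 CPM for monocytes and 7.01 CPM for stem or multipotent progenitors, far under their levels.

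Ifitm2 is an endosomal member. Among the 9 classes of the control it was highest in mature neutrophils at 456 CPM (446 to 465), monocytes at 436 CPM (426 to 446) and basophils or mast cells at 407 CPM (377 to 438), and the last 2 overlap. Stem or multipotent progenitors held 307 CPM, granulocyte progenitors 236 CPM and immature neutrophils 223 CPM. Erythroid cells at 74.8 CPM, T or NK cells at 42 CPM and mature B cells at 21.9 CPM were lowest.

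In the LSL-MYC library every class had at least 2-fold more Ifitm2, with log2 ratios from 1.02 (0.92 to 1.12) in stem or multipotent progenitors to 2.07 (1.71 to 2.43) in T or NK cells. Mature neutrophils reached 1652 CPM (1634 to 1670), a log2 ratio of 1.86 (1.82 to 1.89). Immature neutrophils reached 672 CPM, with 1.59 (1.54 to 1.63), monocytes 954 CPM, with 1.13 (1.09 to 1.17), and basophils or mast cells 961 CPM, with 1.24 (1.11 to 1.37). Erythroid cells went from 4.98 times their ceiling at 74.8 CPM to 3.05 times at 213 CPM. In T or NK cells the level was only 1.36 and 1.18 times the ceiling, so the high ratio there is one of levels that neutrophil RNA could nearly give.

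Ifitm3, the member best known for blocking influenza virus in endosomes, was foremost a monocyte gene. It stood at 1515 CPM (1497 to 1532) in control monocytes, above 694 CPM in mature neutrophils, 406 CPM in immature neutrophils and 323 CPM in stem or multipotent progenitors. Basophils or mast cells held 177 CPM, erythroid cells 134 CPM, granulocyte progenitors 93.8 CPM, T or NK cells 91.3 CPM and mature B cells 49.8 CPM. Granulocyte progenitors and T or NK cells overlap in their intervals.

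Monocytes, the class with the most Ifitm3, had the lowest ratio as counted, though the interval of basophils or mast cells covers it. Monocytes of the LSL-MYC library held 1683 CPM (1667 to 1699), a log2 ratio of 0.15 (0.13 to 0.17), which came down to 0.01 when the 20 most abundant genes were left out of the total. Mature neutrophils held 1233 CPM, a log2 ratio of 0.83 (0.80 to 0.86), immature neutrophils 725 CPM, also 0.83 (0.80 to 0.87), and granulocyte progenitors 206 CPM, one of 1.13 (1.03 to 1.24). Stem or multipotent progenitors held 616 CPM, a log2 ratio of 0.93 (0.83 to 1.03). Basophils or mast cells, at 211 CPM, and erythroid cells, at 163 CPM, had ratios of 0.25 (0.02 to 0.49) and 0.28 (0.18 to 0.38). In erythroid cells 113 and 107 CPM were left above the ceiling, a ratio of -0.08. Mature B cells held 104 CPM, with 1.06 (0.63 to 1.47), and T or NK cells 131 CPM beside a ceiling of 120 CPM, with 0.52 (0.19 to 0.85). Over the alternatives the ratio in T or NK cells ran from 0.17 to 1.37.

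Ifitm6 was a gene of the neutrophil lineage past the progenitor stage. In the control it stood at 71.3 CPM in granulocyte progenitors, 1411 CPM (1395 to 1426) in immature and 1624 CPM (1606 to 1643) in mature neutrophils. Monocytes held 268 CPM, which is 3.54 times their ceiling. In all other classes compared the level was close to or under what neutrophil RNA could give: 144 CPM beside 135 CPM in basophils or mast cells, 107 beside 120 CPM in T or NK cells, 55.4 beside 58.1 CPM in erythroid cells, 44.2 beside 50.4 CPM in stem or multipotent progenitors and 39.6 beside 45.7 CPM in mature B cells.

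In the LSL-MYC library mature neutrophils held 3310.2 CPM of Ifitm6, a log2 ratio of 1.03 (1.01 to 1.05). Granulocyte progenitors held 142 CPM, with 1.0 (0.87 to 1.12), immature neutrophils 1826 CPM, with 0.37 (0.35 to 0.39), and monocytes 315 CPM, with 0.24 (0.18 to 0.29). The ratio in immature neutrophils ranged from 0.21 to 0.74 over the alternatives, some of which move the boundary between the classes, and that in mature neutrophils from 0.77 to 1.57. Basophils or mast cells held 119 CPM, a ratio of -0.28 (-0.57 to 0.01), the only value of the 36 under 0. It was 0.61 with a stricter mitochondrial filter. In the LSL-MYC library Ifitm6 was again under its ceiling in erythroid cells, at 123 CPM, mature B cells, at 69.6 CPM, and T or NK cells, at 255 CPM, as it was in basophils or mast cells, at 119 beside 135 CPM, and in stem or multipotent progenitors its 61.8 CPM was 1.49 times the ceiling.

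**Figure D1:**
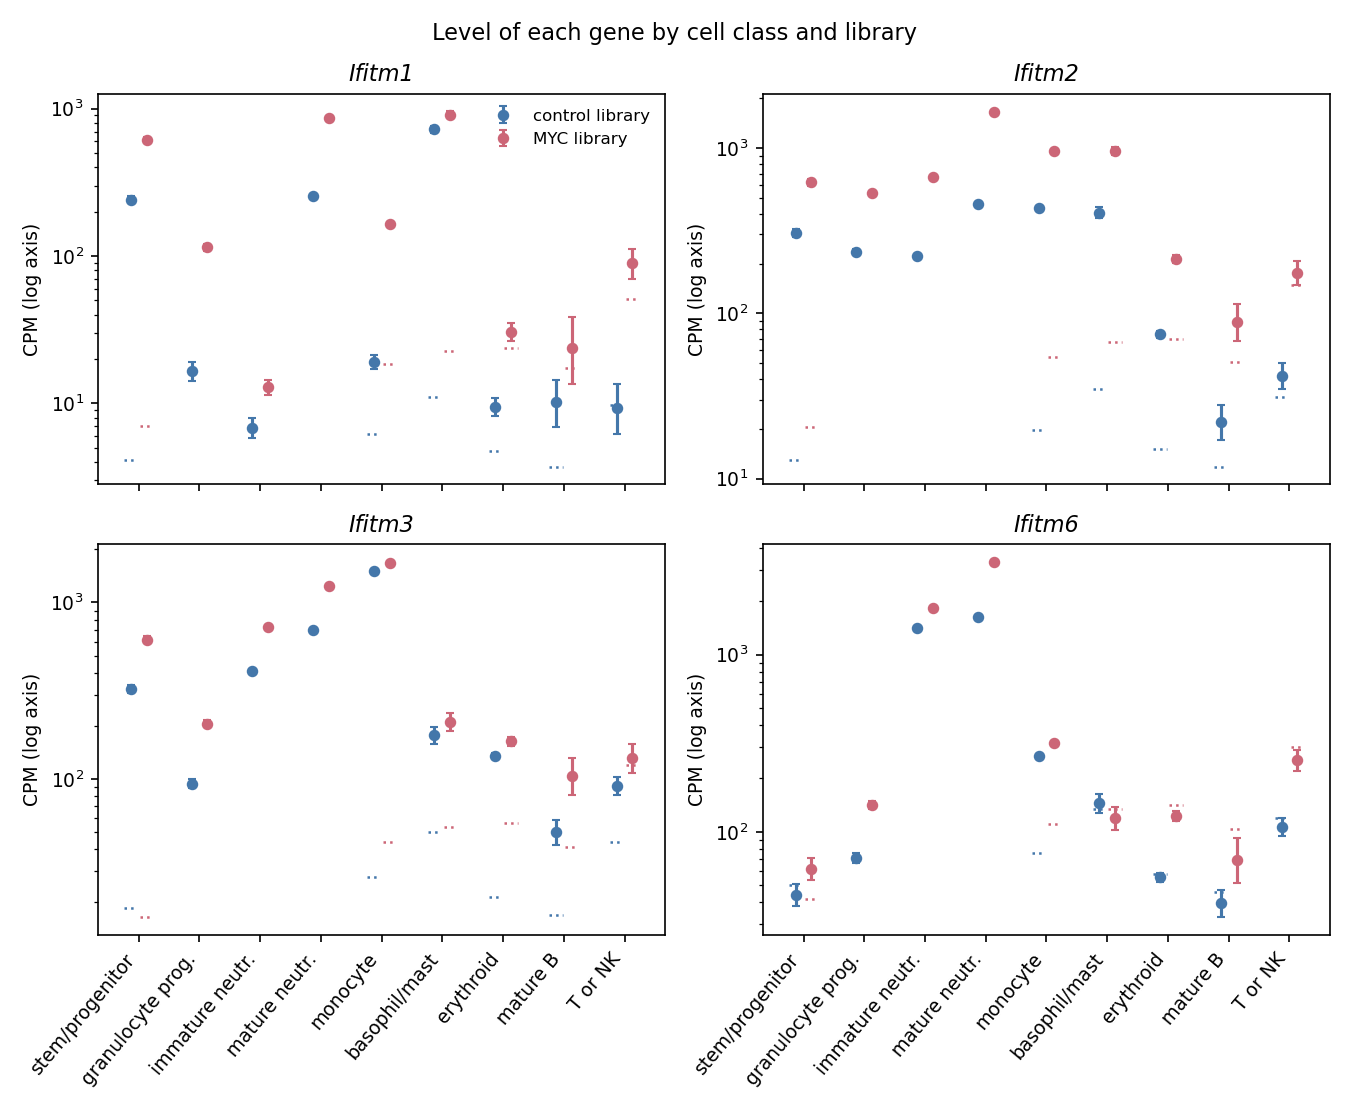
Each panel gives 1 gene, with its level in CPM on a log axis for 9 cell classes in the control (blue) and MYC (red) library. Bars are 95% Poisson intervals and dotted ticks the level that neutrophil RNA could give. Ifitm1 stands out in basophils or mast cells, mature neutrophils and stem or multipotent progenitors, Ifitm3 in monocytes and Ifitm6 in immature and mature neutrophils, while most other Ifitm6 points lie on their ticks.

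Counted at 1.5-fold, Ifitm1 was higher in the LSL-MYC library in 8 of 9 classes, Ifitm2 in 9, Ifitm3 in 5 and Ifitm6 in 5, and none was lower by that much in any class. In the neutrophil lineage as a whole all 4 passed this size, as did 5.37% of the 11784 genes with at least 50 UMIs. All 4 also passed it in granulocyte progenitors (4.99% of all genes), in mature neutrophils (8.24%) and in mature B cells (6.99%), though Ifitm1 had under 50 UMIs in the last. In immature neutrophils (8.45%) and stem or multipotent progenitors (6.28%) Ifitm1, Ifitm2 and Ifitm3 passed it. In erythroid cells (13.4%) and T or NK cells (10.5%) Ifitm1, Ifitm2 and Ifitm6 did, in monocytes (8.9%) Ifitm1 and Ifitm2, and in basophils or mast cells (9.22%) Ifitm2 alone. These counts do not allow for neutrophil RNA. In erythroid, mature B and T or NK cells Ifitm6 lay under its ceiling in both libraries. With the ceiling taken off both levels, Ifitm1 had a log2 ratio of 0.50 in erythroid cells and -0.05 in mature B cells, under 1.5-fold in both. Ifitm3 then had a ratio of -2.10 in T or NK cells, where 47.2 and 11.0 CPM were left. The counts also depend on the processing. Over the alternatives Ifitm6 fell under 1.5-fold in granulocyte progenitors (0.49) and T or NK cells (0.47). In mature B cells Ifitm1 (0.24), Ifitm3 (0.46) and Ifitm6 (0.12) did. Past that size rose Ifitm3 in T or NK cells (1.37), and Ifitm6 in immature neutrophils (0.74), stem or multipotent progenitors (1.19) and basophils or mast cells (0.61). Since the members were chosen on this contrast, nothing is read from these counts against the background. Over all kept cells 8.22% of genes were higher and 22.2% lower by this size.

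The typical gene was not level between the libraries. The median log2 ratio of all genes ran from -0.30 in mature B cells to -0.08 in T or NK cells, was -0.26 in the neutrophil lineage and -0.14 in monocytes. Relative to that median Ifitm1 stood at 2.10, Ifitm2 at 1.97, Ifitm3 at 1.15 and Ifitm6 at 1.04 in the neutrophil lineage. In that lineage 48 of the 11784 genes had a higher ratio than Ifitm1 and 56 a higher one than Ifitm2, while 228 and 313 stood above Ifitm3 and Ifitm6. In monocytes 7 of 11085 genes stood above Ifitm1 and 3196 above Ifitm3. With size factors set by the median gene, more genes of every class were higher than lower. The shares were 13.2% and 8.06% in the neutrophil lineage, 14.9% and 7.82% in granulocyte progenitors, 15.3% and 7.20% in immature and 14.7% and 11.5% in mature neutrophils, and 14.1% and 10.6% in monocytes. They were 15.9% and 14.7% in mature B cells, 13.4% and 11.8% in T or NK cells, 16.7% and 14.1% in the erythroid class, 10.4% and 7.43% in stem or multipotent progenitors and 15.8% and 12% in basophils or mast cells.

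**Figure D2:**
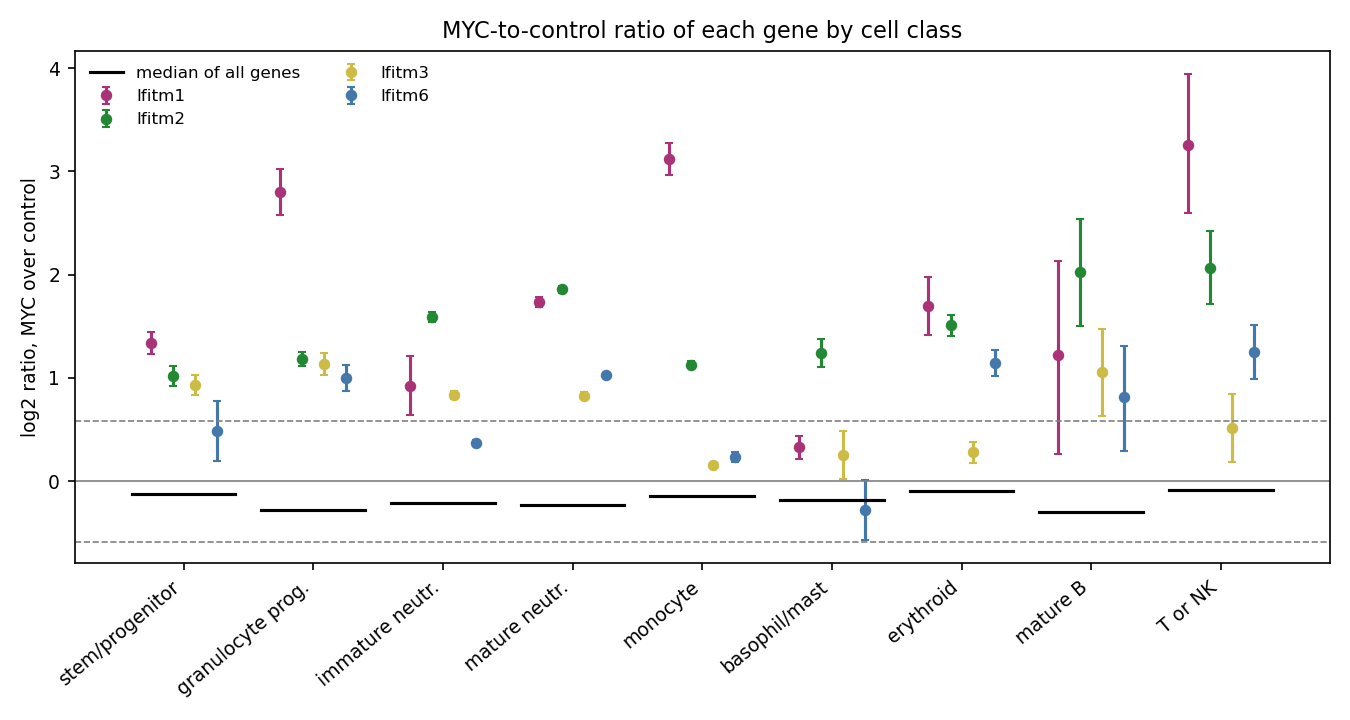
The log2 ratio of the LSL-MYC library over the control is plotted for each gene and class, with 95% binomial intervals for counting error. Black lines are the median of all genes in the class, and dashed lines mark 1.5-fold. Ifitm1 runs from 0.33 in basophils or mast cells to 3.25 in T or NK cells, Ifitm2 is above 1 in all classes, and Ifitm3 is near 0 in monocytes.

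The libraries differed in which clusters filled the mature neutrophil class, so the values were also taken within clusters. Cluster 12, led by Ptgs2, Il1b and Csf3r, had 1439 control cells and 110 of the LSL-MYC library. Cluster 13, led by Cstdc4 and Cxcl2 and with Ifitm1 itself among its 10 leading genes, had 302 and 987 cells. Cluster 0, led by Retnlg, Prok2 and Gpr27, had 949 and 976 cells. Cluster 1, led by Thbs1, Acvrl1 and Chil5, had 1582 and 1430 cells. Its 10 leading genes also hold Ltf, a granule gene of earlier neutrophils, and in most of the other clusterings the clusters with these leading genes were named immature, so the border between the classes is not firm.

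In both libraries Ifitm1 was highest in clusters 12 and 13. Its levels were 705 and 3722 CPM in cluster 12 of the control and LSL-MYC libraries, 617 and 2229.8 CPM in cluster 13, 168 and 709 CPM in cluster 0 and 23.9 and 142 CPM in cluster 1. The log2 ratios ran from 1.85 (1.74 to 1.97) in cluster 13 to 2.57 (2.36 to 2.79) in cluster 1, all above the 1.74 of the class as a whole. Weighting the clusters by their share of control UMIs gave 2.30 for mature neutrophils.

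Ifitm6 had the opposite order over the same cells. It was highest in cluster 1, at 2538 and 4132 CPM, and lower in cluster 12, at 365 and 840.2 CPM. In cluster 13 its control level of 490.0 CPM and LSL-MYC level of 1982 CPM gave its largest ratio in any neutrophil cluster, 2.02 (1.89 to 2.14). Ifitm3 was nearly flat over the 4 mature clusters, from 668 to 723 CPM in the control and from 1199 to 1286 CPM in the LSL-MYC library. Ifitm2 went from 288 CPM in cluster 1 to 752 CPM in cluster 12 of the control, and from 1171 to 2585 CPM in the LSL-MYC library.

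Within each of the 9 clusters of the neutrophil lineage all 4 genes were higher in the LSL-MYC library. The summed level of 36 interferon-stimulated genes was lower in each of them. In cluster 0, for example, that sum was 3115 and 1594 CPM, a log2 ratio of -0.97 (-1.01 to -0.93). The interval of Ifitm1 in immature cluster 6 (159 and 103 cells) runs from -0.62 to 1.58 and so includes 0. The other 35 intervals of the members do not. The share of all genes that were higher, or whose interval left out 0, was not computed by cluster. Counting intervals are narrow for genes with many UMIs, so nothing is read from these counts.

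**Figure D3:**
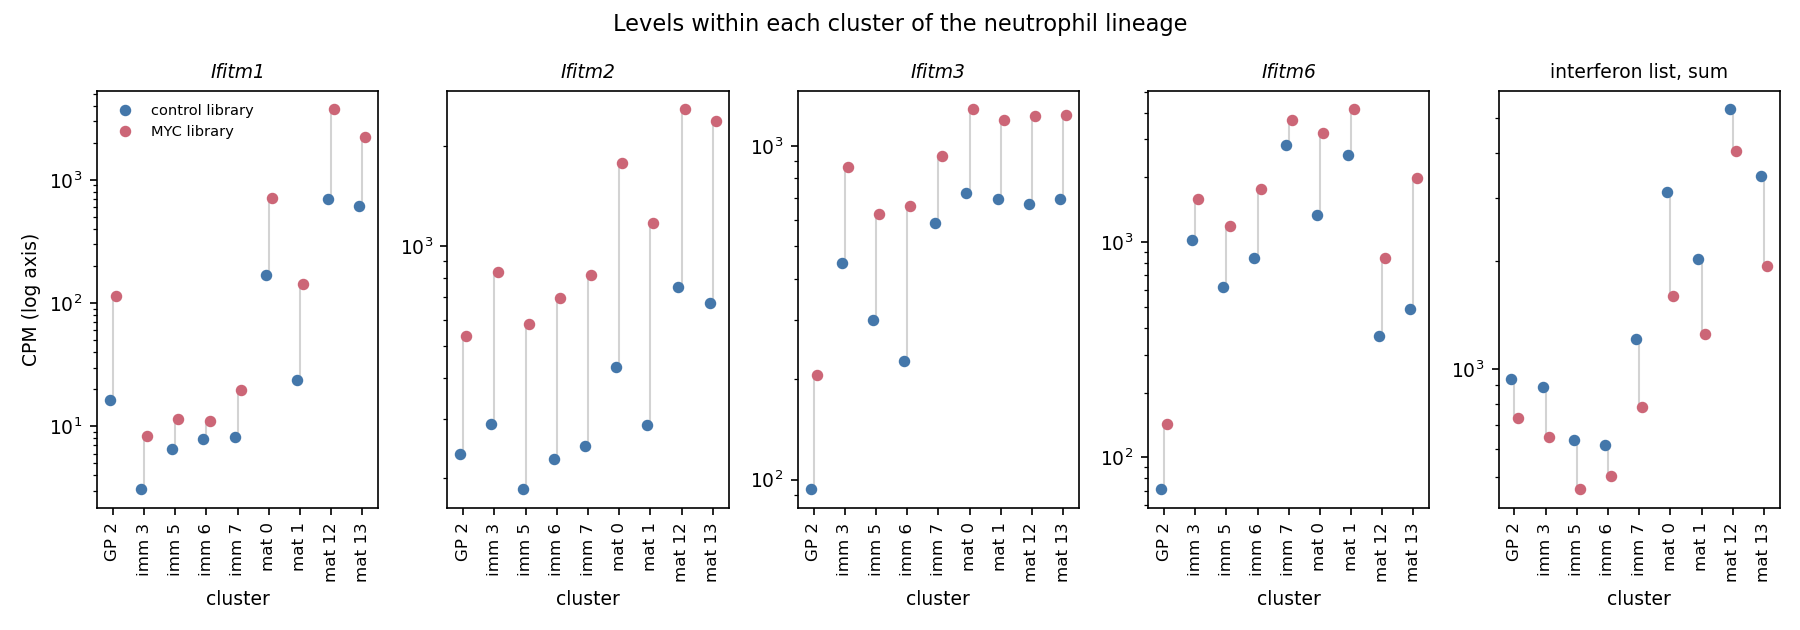
Levels in CPM (log axis) are shown for the 9 clusters of the neutrophil lineage in the control (blue) and MYC (red) library, for each gene and for the sum of the interferon-stimulated list. GP, imm and mat stand for granulocyte progenitor, immature and mature neutrophil clusters, with the cluster number. Red lies above blue in the first 4 panels and below it in the last.

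Monocytes also comprise clusters that differ. Cluster 9, led by Vcan, Fn1 and Ccr2, had 651 control cells and 640 of the LSL-MYC library. Its Ifitm1 stood at 16.7 and 64.8 CPM, a log2 ratio of 1.96 (1.64 to 2.28), and its Ifitm3 at 2657 and 2916 CPM, one of 0.13 (0.10 to 0.16). Cluster 16, with 626 and 970 cells and led by Nrg1, Ass1 and Gria3, also held the progenitor marker Cd34, at 39.9 and 28.8 CPM. There Ifitm1 went from 20.4 to 205 CPM, a ratio of 3.33 (3.14 to 3.53), and Ifitm3 from 899 to 1231 CPM, one of 0.45 (0.42 to 0.49). Cluster 25, with 138 and 69 cells and led by Ace, was the only one of the 3 with less Ifitm3 in the LSL-MYC library, at 1662 and 1494 CPM, a ratio of -0.15 (-0.29 to -0.02). The naming of cluster 16 is not firm: cells with these leading genes were named plasmacytoid dendritic cells at the coarser clustering and were partly granulocyte progenitors with the UMI filter. The part that progenitors have in the ratio of cluster 16 was not tested. Over all alternatives the monocyte ratio of Ifitm1 lay between 2.26, at a finer clustering, and 3.26, with size factors set by the median gene.

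In mature neutrophils the difference was spread over many cells, and no cell held more than 0.525% of the UMIs of a member. Each cell was thinned to 3000 UMIs so that depth was equal, which left out 1116 control and 577 LSL-MYC cells among mature neutrophils. Of the remaining mature neutrophils 24.5% (23.0 to 26.0) had an Ifitm1 UMI in the control and 45.1% (43.3 to 46.9) in the LSL-MYC library. The unthinned shares were 33.1% and 53.0%. For Ifitm2 the thinned shares were 61.6% and 95.3%, for Ifitm3 79.9% and 94.2% and for Ifitm6 83.5% and 96.5%. In immature neutrophils Ifitm2 was seen in 46.4% and 83.4% of thinned cells, and Ifitm1 in 2.04% and 3.5%.

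Among stem or multipotent progenitors the thinned share for Ifitm1 was 43.4% (36.5 to 50.5) in the control and 72.1% (64.6 to 78.8) in the LSL-MYC library, with 2 and 7 cells left out. For monocytes it was 3.21% (2.34 to 4.29) and 20.4% (18.5 to 22.5). At the same thinning mature B cells, where Ifitm1 was scarce, had shares of 3.30% and 5.45%. Whether mature B cells are a clean background was not tested. Their summed control level was 2.73 times its ceiling, beside 3.09 times in control monocytes. That ceiling rests on the 97.0 CPM of the pooled control lineage, while mature neutrophils held 258 CPM. Free RNA chiefly from mature cells could thus give more than the ceiling in both classes. In basophils or mast cells the Ifitm1 shares were 58.0% (50.3 to 65.3) and 58.8% (49.9 to 67.3), which overlap.

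Thinned to 1000 UMIs, 1.45% of control mature neutrophils had a UMI of all 4 genes, against 13.4% in the LSL-MYC library, and 11.6% and 1.16% had none. In immature neutrophils the all-4 share was 0.150% and 0.422%, since Ifitm1 was rarely seen there.

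**Figure D4:**
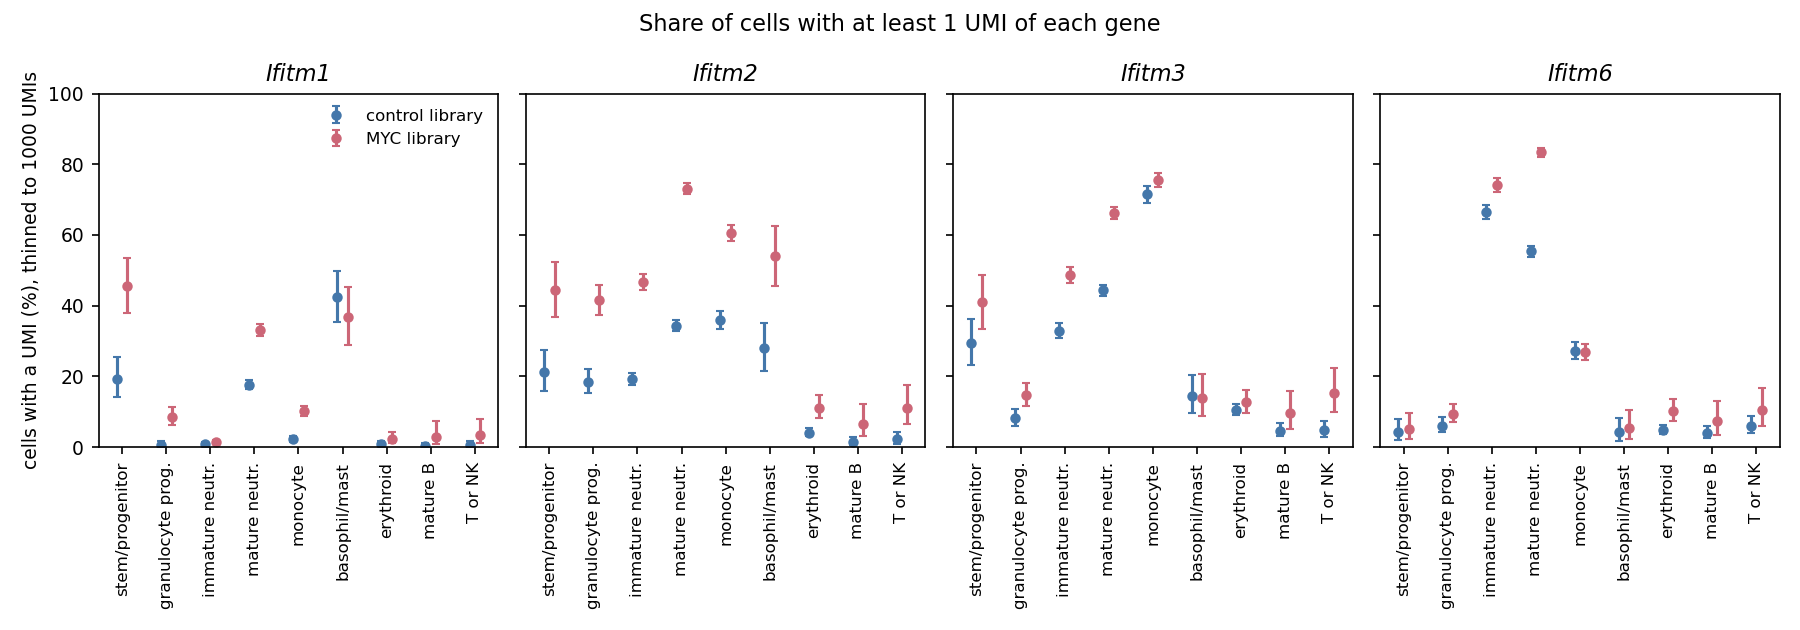
The percentage of cells with at least 1 UMI of each gene is plotted by class and library after thinning to 1000 UMIs per cell, with 95% binomial intervals. Ifitm2 in mature neutrophils goes from 34.4% to 73.1% and Ifitm1 in stem or multipotent progenitors from 19.3% to 45.6%, while Ifitm6 outside neutrophils and monocytes stays low in both libraries.

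That many other genes of the interferon response were lower was part of what led to the choice of the 4, so it is a description too. A list of 38 genes that type I interferon induces, 36 of them among the features, had 35 with at least 50 UMIs in the neutrophil lineage. None was higher by 1.5-fold and 25 were lower, where 20.7% of all genes were lower, and the median log2 ratio was -0.91. Against the median gene 19 were still lower by that size and none higher. Rsad2, which makes an antiviral nucleotide, was lowest, going from 67.6 to 16.6 CPM, a log2 ratio of -2.02 (-2.13 to -1.92). Ifit1, which binds foreign RNA ends, had 26.7 and 7.99 CPM, a ratio of -1.74 (-1.90 to -1.58), and Usp18, which damps the interferon receptor, 7.59 and 2.34 CPM, one of -1.70 (-2.0 to -1.40). The highest were Bst2, the virus tether tetherin, with 0.09 (-0.03 to 0.21), Ifi35 with 0.07 (-0.08 to 0.21) and Lgals3bp with -0.23 (-0.48 to 0.02). All 35 thus stood below Ifitm6, the lowest of the 4 members there.

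In monocytes 33 of the 36 genes of the list were lower by 1.5-fold and none higher, where 16.5% of all genes were lower, with a median of -1.52. Against the median gene it was 32, and again none was higher. Ifit3b went from 5.49 to 0.234 CPM, a ratio of -4.55 (-6.03 to -3.38), Ifi44 from 4.35 to 0.429 CPM, one of -3.34 (-4.40 to -2.42), and Rsad2 from 30.7 to 3.31 CPM, one of -3.21 (-3.56 to -2.88). Bst2 at -0.05 (-0.13 to 0.03), Ifi35 at -0.07 (-0.20 to 0.07) and Ly6e, another gene that affects virus entry, at -0.47 (-0.49 to -0.45) were highest.

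Genes of the list were lower by 1.5-fold at each stage of the lineage: 18 of 29 in granulocyte progenitors, where 24.7% of all genes were, 18 of 32 in immature neutrophils, where 18% were, and 28 of 35 in mature ones, where 21.7% were. Erythroid cells had 23 of 33 lower, beside 18.5% of all genes, and 1 higher. Basophils or mast cells had 8 of 17 lower, beside 20.8%, and mature B cells 7 of 17, beside 29.1%. Stem or multipotent progenitors had 5 of 28 lower, beside 12.1% of all genes, and 1 higher, with a median of -0.20. T or NK cells had 6 of 28 lower, beside 15.3%, and 1 higher, with a median of -0.08. Against the median gene the numbers lower and higher were 12 and 1 in granulocyte progenitors, 14 and 0 in immature and 23 and 0 in mature neutrophils, and 22 and 1 in erythroid cells. They were 5 and 1 in basophils or mast cells, 3 and 1 in mature B cells, 5 and 4 in stem or multipotent progenitors and 5 and 3 in T or NK cells. Whether classes differ in this was not tested. The log2 ratios of Ifitm1, Ifitm2 and Ifitm3 in stem or multipotent progenitors were 1.34, 1.02 and 0.93, beside the list median of -0.20.

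**Figure D5:**
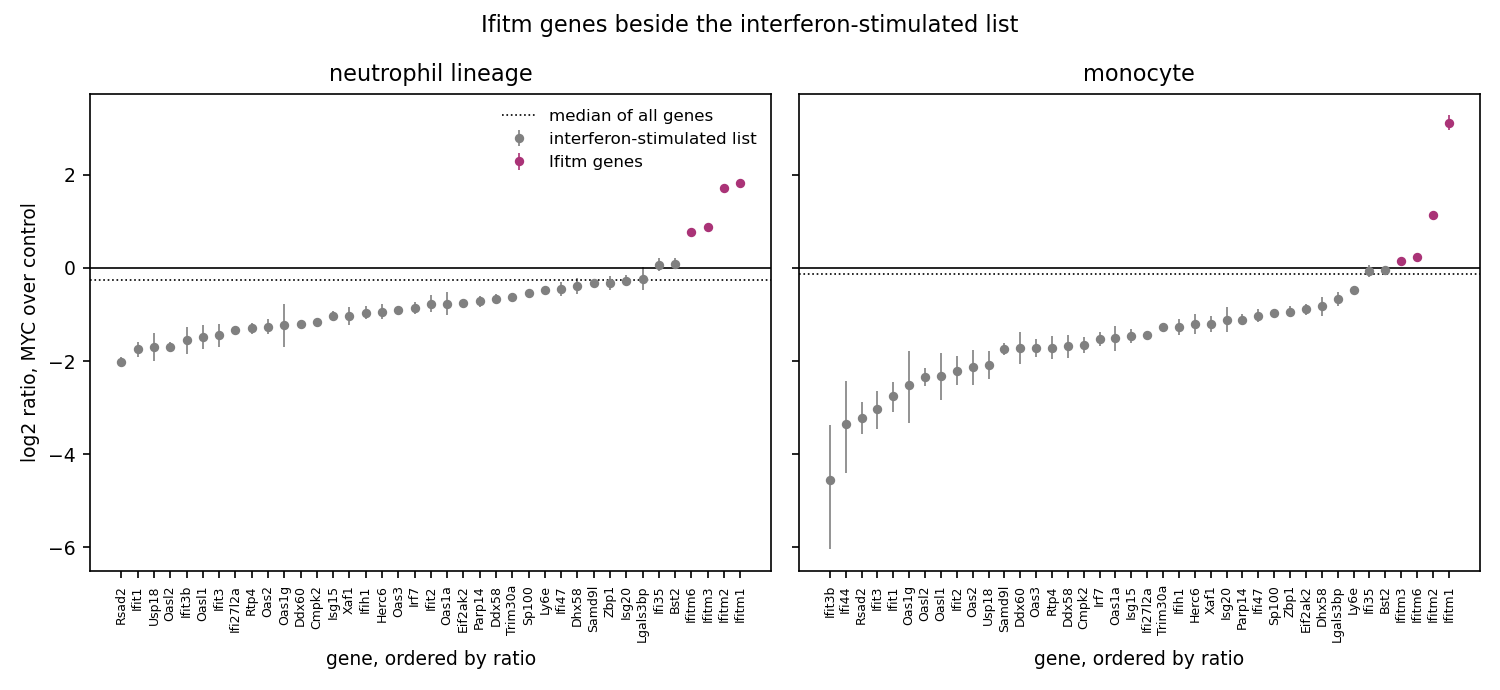
Genes of the interferon-stimulated list with at least 50 UMIs (grey) and the 4 Ifitm genes (purple) are ordered by their log2 ratio in the neutrophil lineage and in monocytes, with 95% intervals for counting error. The 4 Ifitm genes are the rightmost points in both panels, from 0.78 to 1.83 and from 0.15 to 3.12.

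Genes that respond mainly to interferon gamma were mostly lower in the neutrophil lineage and monocytes. Of 19 genes, 17 had enough UMIs in the neutrophil lineage, 13 were lower by 1.5-fold, beside 20.7% of all genes, and none higher, with a median of -0.75. Cxcl9, a chemokine for T cells, went from 1.12 to 0.172 CPM, a ratio of -2.70 (-3.90 to -1.68), and the guanylate-binding proteins Gbp2 and Gbp5 had -1.30 (-1.5 to -1.09) and -1.15 (-1.65 to -0.66). The immunoproteasome subunits Psmb8 and Psmb9 were not lower, at 0.48 (0.43 to 0.53) and 0.07 (0.02 to 0.13), and Irf1 had -0.47 (-0.56 to -0.39). In monocytes 14 of 18 were lower, beside 16.5% of all genes, with Cxcl9 at -3.56, Iigp1 at -2.53 and Cxcl10 at -2.45 lowest and Psmb8 at 0.55, Psmb9 at 0.07 and Tap1 at -0.51 highest. In T or NK cells 6 of 17 were higher by 1.5-fold, beside 10.5% of all genes, and none lower, with a median of 0.41. In stem or multipotent progenitors 3 of 14 were higher, beside 6.28%, and none lower, with a median of 0.16. Against the median gene the lower genes were 7 of 17 in the neutrophil lineage and 10 of 18 in monocytes, each with 1 higher.

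Of 16 receptor and signalling genes in the neutrophil lineage none was higher by 1.5-fold and 5 were lower, beside 5.37% and 20.7% of all genes, with a median of -0.42. Against the median gene 1 was higher and 3 were lower. Stat2, a signalling factor of type I interferon, went from 22.7 to 9.85 CPM (-1.21, -1.36 to -1.06), and its partner Irf9 from 48.8 to 25.4 CPM (-0.94, -1.04 to -0.84). The receptor chain Ifnar2 went from 75.1 to 84.6 CPM, a ratio of 0.17 (0.11 to 0.23), and the factor Irf5 had -0.05 (-0.28 to 0.19). Socs3, an inhibitor of cytokine signalling that STAT3 induces, had 0.33 (0.19 to 0.48) in the neutrophil lineage and went from 2.99 to 17.5 CPM in monocytes, a ratio of 2.55 (2.14 to 2.98). In monocytes Stat2 was at -1.46 and Irf9 at -0.84, and Ifngr1 was level at 0.01 (-0.05 to 0.06).

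Partners of IFITM proteins and other genes of virus entry did not follow 1 direction. Of 10 in the neutrophil lineage 2 were higher and 3 lower by 1.5-fold, beside 5.37% and 20.7% of all genes, with a median of 0.08. Against the median gene 2 were higher and none lower. The cholesterol exporter Abca1 went from 0.987 to 8.62 CPM, a ratio of 3.13 (2.71 to 3.57), from 52 and 450 UMIs. The endosomal protease Ctsl went from 9.26 to 15.2 CPM, a ratio of 0.72 (0.55 to 0.88), and in monocytes from 24.7 to 61.2 CPM, one of 1.31 (1.16 to 1.46). Its relative Ctsb was lower in both, at -0.69 (-0.74 to -0.64) and -0.68 (-0.72 to -0.64). Zdhhc20, an enzyme that attaches palmitate to IFITM3, had -0.62 (-0.70 to -0.54), the endosomal cholesterol transporter Npc1 had -0.71 (-0.87 to -0.55), and Vapa, a contact-site protein that binds IFITM3, had 0.21 (0.16 to 0.25), all in the neutrophil lineage. In monocytes Abca1 had 0.85 (0.41 to 1.31), the tetraspanin Cd81 0.26 (0.05 to 0.47), the tetraspanin Cd63 -0.81 (-0.97 to -0.66) and Npc1 -0.63 (-0.80 to -0.47).

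The remaining 3 genes of the family were scarce. Ifitm7, on chromosome 16, was found chiefly in granulocyte progenitors, at 10.9 and 7.56 CPM, and in stem or multipotent progenitors, at 6.75 and 6.47 CPM. Its ratio in the neutrophil lineage was -0.71 (-1.14 to -0.30). Ifitm10, on chromosome 7 at 142325837 to 142373753, was highest in T or NK cells, at 44.1 and 33.3 CPM, a ratio of -0.40 (-1.05 to 0.19). Ifitm5, a gene of bone-forming cells, had 71 and 104 UMIs in all kept cells a ratio of 0.81 (0.36 to 1.26) over them and one of 0.57 (-0.03 to 1.19) in the neutrophil lineage.

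Ifitm5 is the next gene to Ifitm2 on the chromosome, and it leads over to the neighbourhood. Within 200 kb of the 4 genes lie 27 other annotated genes, of which 15 had at least 50 UMIs over all kept cells. Of these, 3 were higher and 2 lower in the LSL-MYC library by 1.5-fold, where 8.22% and 22.2% of all genes were, and their median log2 ratio was 0.12. Rnh1, a ribonuclease inhibitor, went from 46.2 to 97.6 CPM, a ratio of 1.08 (1.03 to 1.12), Ifitm5 had the 0.81 given above and B4galnt4 0.73 (0.27 to 1.19). Ptdss2, a phosphatidylserine synthase, went from 40.6 to 15.2 CPM, a ratio of -1.42 (-1.51 to -1.34), and Lrrc56 had -0.81 (-1.17 to -0.45). The proteasome gene Psmd13 had 0.20 (0.16 to 0.24), Pkp3 0.16 (-0.01 to 0.32), Zfp941 0.15 (-0.68 to 0.97), Hras 0.13 (0.07 to 0.19), Ric8a 0.12 (0.06 to 0.19), Sirt3 0.05 (-0.03 to 0.14), Bet1l -0.03 (-0.10 to 0.04), Pgghg -0.12 (-0.25 to 0.01), Sigirr -0.27 (-0.44 to -0.11) and Rassf7 -0.33 (-0.56 to -0.10). Over the same cells the 4 members had 1.91, 1.81, 0.92 and 0.98 for Ifitm1, Ifitm2, Ifitm3 and Ifitm6. These pooled ratios also carry the mix of cells, since erythroid cells were 9.31% and 3.5% of kept cells and macrophages 0.154% and 5.02%. Within the neutrophil lineage 13 neighbours had at least 50 UMIs, with ratios from -0.67 (-0.94 to -0.41) for Ptdss2 to 0.65 (0.57 to 0.73) for Rnh1, beside 0.78 for Ifitm6.

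Cells of the LSL-MYC library with a UMI of the transgene were compared with those without one. Over the whole neutrophil lineage Ifitm1 had a log2 ratio of 0.81 (0.71 to 0.91), but 143 of the 181 cells with such a UMI were mature neutrophils, which hold most Ifitm1. Within mature neutrophils 3360 cells had none, with median depths of 5766 and 5354 UMIs. Ifitm1 stood at 976 and 853 CPM, a log2 ratio of 0.19 (0.09 to 0.30), Ifitm2 at 1823 and 1644 CPM, one of 0.15 (0.08 to 0.22), and Ifitm3 and Ifitm6 at ratios of 0.08 (-0.01 to 0.17) and -0.03 (-0.09 to 0.02). In monocytes, with 48 and 1631 cells, Ifitm1 had 223 and 164 CPM, a ratio of 0.45 (0.22 to 0.67), Ifitm2 one of 0.07 (-0.04 to 0.17), Ifitm3 one of 0.11 (0.03 to 0.19) and Ifitm6 one of 0.36 (0.19 to 0.53). In immature neutrophils, with 33 and 1901 cells, the ratios were -0.63 (-2.52 to 0.74) for Ifitm1, 0.05 (-0.11 to 0.21) for Ifitm2, 0.19 (0.04 to 0.33) for Ifitm3 and -0.05 (-0.15 to 0.05) for Ifitm6. Few UMIs of the transgene were counted, so cells without one need not lack it. The comparison was not split by cluster, though Ifitm1 levels differ widely between the clusters of mature neutrophils and of monocytes. The part that the mix of clusters has in these ratios was not tested.

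The genes most like each member were taken over 18 points, the 9 classes in each library, by Pearson's correlation of log2(CPM + 1) among 5513 genes that reach 50 CPM. The points share libraries and class boundaries, so the coefficients are descriptions. Ifitm1 was most like Ifrd1 (0.81), Ier3 (0.80) and Ramac (0.79), Ifitm2 like Gapdh (0.91), Timm10b (0.91) and Rab5if (0.88), Ifitm3 like Plin2, Milr1 and Bri3 (0.84 each) and Ifitm6 like 6430548M08Rik (0.95), Pilra (0.94) and Dhrs7 (0.93). Among the members Ifitm2 and Ifitm3 had 0.78, Ifitm1 and Ifitm2 0.70, Ifitm3 and Ifitm6 0.65, and Ifitm1 and Ifitm6 0.12. In the neutrophil lineage the log2 ratios of these genes, in the same order, were 0.39, 0.57 and 0.50 for the set of Ifitm1, 0.88, 0.43 and 0.24 for that of Ifitm2, 0.54, 0.01 and 0.60 for that of Ifitm3 and -0.39, -0.06 and 0.03 for that of Ifitm6.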

How the data were processed

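The deposited values are UMI counts per gene and barcode, made by the authors; per the file headers the software was Cell Ranger 6.0.0. The submitters' processing notes name GRCm38 and Seurat. How barcodes were called as cells is not given in the sources used here. The libraries held 131884603 and 110012176 UMIs in 17073 and 14496 barcodes. Cells with at least 500 UMIs, 200 genes and under 10% mitochondrial UMIs were kept. Scrublet removed 557 (3.60%) and 357 (2.77%) as doublets at a fixed score of 0.2, set after its automatic threshold found almost none in the MYC library. Both libraries were clustered with scanpy 1.11.5 (Leiden, resolution 1, 30 components, 15 neighbours) without members, listed genes, mitochondrial, ribosomal, immunoglobulin and receptor genes, and clusters were named by markers. Counts were summed per class and library. Intervals (95%) are exact Poisson, conditional binomial or Clopper-Pearson. Calculations were checked on simulated data. Named genes were all members, the 3 highest and 3 lowest of each list in the neutrophil lineage and monocytes, the 3 most alike per member and neighbours within 200 kb. Members, lists and rules were chosen with earlier results of these data known. One gene that this rule names is not reported here.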

Additional observations from a re-analysis of the deposited data

How the results depend on the processing

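Of 512 values of the members' log2 ratios under alternative settings, over 44 results (4 genes in 9 classes and 2 pooled lineages), 320 stayed within the counting interval of the reported value and 192 moved beyond it; none changed the sign of a ratio whose interval excluded 0. Taking off the level that neutrophil RNA could give is not among these values and did turn 3 signs: Ifitm3 in erythroid cells (-0.08) and in T or NK cells (-2.10), and Ifitm1 in mature B cells (-0.05). It left no ratio where a level lay under its ceiling in either library. This was so for Ifitm1 in T or NK cells. For Ifitm6 it was so in T or NK, erythroid and mature B cells, basophils or mast cells and stem or multipotent progenitors. In the neutrophil lineage, Ifitm1 (1.83) was 2.10 with median-of-ratios size factors, 1.55 as the mean over cells, 1.71 at under 5% mitochondrial UMIs, 1.88 with at least 1000 UMIs and 500 genes, 1.73 at resolution 0.5, 1.89 with classes by markers alone and 2.30 with clusters weighted by the control's UMIs. In the same order, Ifitm2 (1.71) was 1.97, 1.64, 1.65, 1.76 and 1.66, and stayed within its interval under the mitochondrial filter and the weighting. Ifitm3 (0.89) was 1.15, 0.80, 0.81, 0.83 and 0.86, and stayed within its interval under the UMI filter and the weighting. Ifitm6 (0.78) was 1.04, 0.83, 0.70, 0.71, 0.73, 0.74 and 0.74. The weighting by cluster and the removal of the richest cell were chosen after seeing the data. Size factors shift every gene of a class alike, and a change of cells or clusters moves cells between classes; the cause of the other shifts was not tested. Resolution 0.5 gave no granulocyte progenitor or stem class of 100 cells in each library, the UMI filter no stem class and the mitochondrial filter no mature B class. Kept doublets, the shared barcodes and the richest cell moved none of the 4 lineage values beyond its interval. No paired analysis was possible because each group has 1 library. Depth limits values from few UMIs, such as Ifitm1 in mature B cells (32 and 16) and in T or NK cells (27 and 75).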
